A study of Homo sapiens with 8 samples.

Results

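The results concern 8 genes of the chemokine system in cultures labelled as undifferentiated human embryonic stem cells and as embryoid bodies, with and without ethanol. They are the ligand genes CXCL5, CXCL6, CXCL12, CXCL14, CCL26 and CCL2 and the receptor genes CXCR4 and ACKR3, out of 19775 genes that had a probe set of their own on the arrays. CXCL5 and CCL26 were chosen by their measured signals, for their pattern over stage and dose on these same arrays, so their values are described here with no test. The other 6 members were tested in fits across all genes, though the list was made with earlier results of these data known. The members had 17 probe sets that named them alone, and the probe set with the highest mean stood for each gene. All 8 passed the filter on dim signals, as did 14072 genes in all.

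Total RNA was hybridised to 8 expression arrays. The groups, of 2 arrays each, were embryoid bodies with 20 mM ethanol, embryoid bodies with 0 mM, undifferentiated cells with 20 mM and undifferentiated cells with 0 mM, and exposure lasted 24 h. Embryoid bodies are floating aggregates in which pluripotent cells begin to differentiate, and the labels give neither their age nor the medium they formed in. All samples are labelled as the established line H9, with mTeSR as the culture medium. The 2 arrays of a group carry the letters A and B, which nothing in the labels ties to separate cultures, so p-values measure the spread between these arrays, which may be technical.

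Chemokines are small secreted proteins that bind glycosaminoglycans on cell surfaces and steer the migration of cells along their gradients through G protein-coupled receptors. CXCL5 and CXCL6 act on the neutrophil receptors CXCR1 and CXCR2, CCL2 on the monocyte receptor CCR2, and CCL26, also called eotaxin-3, on the eosinophil receptor CCR3. CXCL12 acts through CXCR4, and ACKR3 binds the same ligand, recruits arrestin and takes CXCL12 up without the usual G protein signal. In the embryo the CXCL12 system guides germ cells, neural crest and blood progenitors.

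Signals are on a linear scale set so that every array had a trimmed mean of 499.96 to 500.13. The array medians were 102 on both arrays of embryoid bodies with 20 mM ethanol, 85.1 on both with 0 mM, 74.1 and 79.4 in undifferentiated cells with 20 mM, and 69.2 and 70.8 with 0 mM. Signals under these medians are called dim here. By transcripts that tell cell lines apart, 4 of the 8 arrays went against the labelled line, and these 4 made up 1 of the 2 stages. A difference between the stages therefore cannot be told apart from a difference between lines, and no stage comparison remains without those arrays. Of 9 measured pluripotency markers, 9 lay above the array median in every group, with summed signals of 81052 to 95674 in embryoid bodies and 119497 to 128422 in undifferentiated cells. Summed signals of 9 endoderm and yolk sac markers were 30094 to 41229 in embryoid bodies and 715 to 1024 in undifferentiated cells. Summed signals of 10 mesenchyme markers were 47645 to 73588 in embryoid bodies and 8046 to 9945 in undifferentiated cells. Of 9 measured leukocyte markers, PTPRC, CD14, ITGB2, TYROBP and SPI1 were dim on all 8 arrays, ITGAM exceeded the median on 2 and CSF1R on 1, and LCP1 and CD53 on all 8. Their summed signals were 468 to 780 in embryoid bodies and 413 to 544 in undifferentiated cells. Of 3 tested leukocyte markers 1, LCP1, was called between the stages, higher at both doses (log2 changes of 1.41 ± 0.23 at 20 mM and 0.86 ± 0.23 at 0 mM). Among all genes 56.3% were called at 20 mM and 52.8% at 0 mM. CD53 had lower geometric means in embryoid bodies, 191 against 209 at 20 mM and 145 against 157 at 0 mM. The median log2 change of the 3 markers was 0.60 at 20 mM and -0.10 at 0 mM. The part of other cell types in the stage values was not tested. On RNA of whole cultures, fewer cells of a type and less RNA per cell cannot be told apart.

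CXCL5 and CXCL6 lie in the same run of CXC ligand genes on chromosome 4, with CXCL1 between them and CXCL3 beyond CXCL5. All 4 genes had lower mean signals in embryoid bodies at both doses, as did PF4, PF4V1 and CXCL2 of the same run. PF4V1 was dim on all 8 arrays and CXCL2 on all but 1. CXCL8 and PPBP of this run, also dim on all 8 arrays, had lower means in embryoid bodies at 20 mM. At 0 mM their means were higher there, at 33.1 against 20.7 for CXCL8 and 35.9 against 28.5 for PPBP. The 250 bases before the transcription start of CXCL5, CXCL6, CXCL3 and CXCL1 are shown, chosen after these values were seen. They are RefSeq sequence of build GRCh38.p14, from chr4:73998678-73998927 on the minus strand for CXCL5, chr4:73836428-73836677 on the plus strand for CXCL6, chr4:74038690-74038939 on the minus strand for CXCL3 and chr4:73869143-73869392 on the plus strand for CXCL1. Each is written from 5′ to 3′, and the capitals mark matches to the kappa-B consensus.
CXCL5: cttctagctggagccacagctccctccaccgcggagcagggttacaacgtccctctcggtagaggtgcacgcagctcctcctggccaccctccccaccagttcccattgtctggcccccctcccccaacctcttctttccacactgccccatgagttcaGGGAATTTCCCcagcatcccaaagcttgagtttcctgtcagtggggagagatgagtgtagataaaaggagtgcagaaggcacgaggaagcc
CXCL6: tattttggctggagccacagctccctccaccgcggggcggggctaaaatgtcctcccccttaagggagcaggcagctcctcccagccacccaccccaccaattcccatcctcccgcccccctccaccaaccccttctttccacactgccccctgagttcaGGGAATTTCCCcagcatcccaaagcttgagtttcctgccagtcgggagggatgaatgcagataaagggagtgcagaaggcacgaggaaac
CXCL3: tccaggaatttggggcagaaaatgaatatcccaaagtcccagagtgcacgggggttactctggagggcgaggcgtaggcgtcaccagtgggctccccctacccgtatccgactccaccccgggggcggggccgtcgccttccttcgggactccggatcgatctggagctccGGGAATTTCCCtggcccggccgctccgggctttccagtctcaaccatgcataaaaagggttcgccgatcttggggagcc
CXCL1: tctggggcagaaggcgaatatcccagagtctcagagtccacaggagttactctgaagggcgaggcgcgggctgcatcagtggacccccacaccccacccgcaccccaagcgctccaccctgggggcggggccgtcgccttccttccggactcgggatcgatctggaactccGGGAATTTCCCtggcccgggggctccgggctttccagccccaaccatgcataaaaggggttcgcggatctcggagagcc
The CXCL5 and CXCL6 windows were identical at 214 of 249 aligned bases (85.9%), and those of CXCL3 and CXCL1 at 210 of 242 (86.8%). Identity between the pairs was lower, at 58.0% for CXCL5 with CXCL3. The kappa-B consensus, the binding motif of the NF-kappa-B transcription factors, was searched on both strands and matched in all 4 windows as GGGAATTTCC, beginning 91 bases before the start in CXCL5, 90 in CXCL6 and 79 in CXCL3 and CXCL1. A match on the other strand, which reads GGAATTTCCC on the strand shown, overlapped it by all but its first base. The consensus was found in 9.96% of 35116 promoter windows of this length. The STAT half-site pair TTCNNNGAA overlapped the kappa-B match in CXCL5 and CXCL6, beginning 95 and 94 bases before the start, and was found in 6.57% of all windows. Of the 8 members, 6 had an entry in the promoter table, and ACKR3 and CCL2 had none. The window of CCL26, on chromosome 7, held no match to kappa-B, TTCNNNGAA or the STAT6 form, which has 1 more N between its half-sites and was found in 5.38% of all windows. The motif GGGCGG, present in 42.6% of windows, occurred 4 times in that of CXCL14 and 3 times in that of CXCL12. It also occurred in windows of CXCR4, CXCL6, CXCL3 and CXCL1. These matches are descriptions of the letters and not binding sites. Windows of the other genes of the run on chromosome 4 were not searched singly. A link of the matches to the stage values was not tested.

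CXCL5, a neutrophil attractant, had bright signals in undifferentiated cells. Its signals were 347 and 427 in embryoid bodies with 20 mM ethanol, 437 and 437 in embryoid bodies with 0 mM, 5623 and 4169 in undifferentiated cells with 20 mM, and 5129 and 5129 with 0 mM. All 4 embryoid body arrays lay below all 4 undifferentiated arrays. The log2 difference between the stages was -3.65 ± 0.17 at 20 mM, or 12.6-fold lower in embryoid bodies, and -3.55 ± 0.17 at 0 mM, or 11.7-fold lower (SE of the fit, n = 2 arrays per group). This probe set is of the _x_at kind, whose probes can also bind related sequences. A further probe set of CXCL5, of the _s_at kind, had signals of 63.1 to 79.4 in embryoid bodies and 501 to 708 in undifferentiated cells. It was dim on all 4 embryoid body arrays, so no fold is given for it. The remaining probe set ranged from 14.8 to 31.6 in embryoid bodies and from 25.1 to 74.1 in undifferentiated cells, and was dim on all but 1 of the 8 arrays. The split of signal between CXCL5 and its close relative CXCL6 is therefore uncertain.

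CXCL6, the neighbouring neutrophil attractant, fell in embryoid bodies relative to undifferentiated cells in the fit across all genes. Its signals were 182 and 123 in embryoid bodies with 20 mM ethanol, against 871 and 955 in undifferentiated cells with 20 mM. Without ethanol they were 115 and 117 in embryoid bodies and 1000 and 955 in undifferentiated cells. The stages did not overlap at either dose, and in embryoid bodies CXCL6 stood not far above the array medians. The log2 change was -2.61 ± 0.18 at 20 mM (6.10-fold, adjusted p = 0.000207) and -3.07 ± 0.18 at 0 mM (8.41-fold, adjusted p = 0.00015). In the plot of member signals by array, CXCL5, CXCL6 and CCL26 stand highest in the undifferentiated groups, and CXCL14, CCL2, CXCR4 and ACKR3 in the embryoid bodies.

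**Figure D1:**
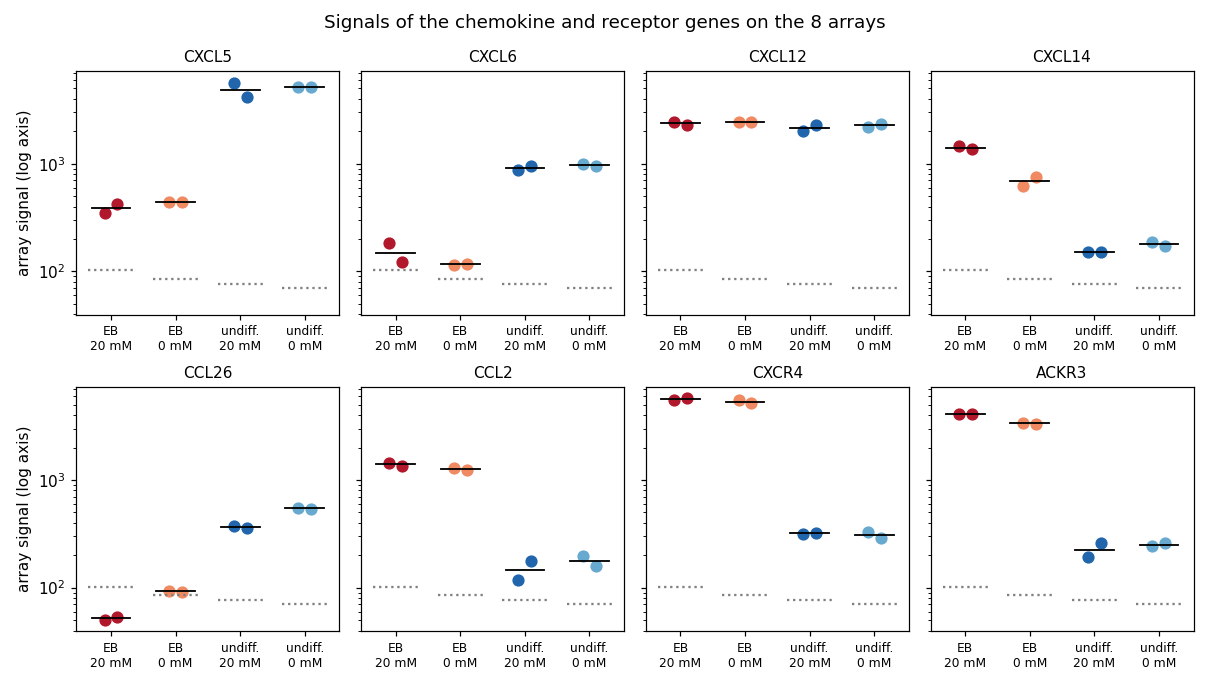
Signals of the 8 genes on the 8 arrays (log axis). Points are arrays, black bars are geometric means of the 2 arrays of a group, and dotted grey bars are the group's array median. The 4 CXCR4 points of embryoid bodies (EB) lie between 5129 and 5754, above those of undifferentiated cells (undiff.) at 288 to 331, while CXCL12 stays between 1995 and 2455 in all groups. Levels of different genes are not comparable, because each has its own probes.

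CXCL12, the ligand of CXCR4 and ACKR3, was bright in both stages. Its signals were 2455 and 2291 in embryoid bodies with 20 mM ethanol, 2455 and 2455 in embryoid bodies with 0 mM, 1995 and 2291 in undifferentiated cells with 20 mM, and 2188 and 2344 with 0 mM. Neighbouring groups in the order of the 4 group means overlapped at every step. The 0 mM groups of the stages are not neighbours in that order. At 0 mM both embryoid body arrays lay above both undifferentiated arrays, while at 20 mM the stages overlapped. The stage difference was 0.15 ± 0.09 at 20 mM (adjusted p = 0.222) and 0.12 ± 0.09 at 0 mM (adjusted p = 0.338), did not pass, and turned to -0.27 and -0.17 when arrays were centred on their medians. A dimmer probe set of CXCL12 read 661 and 676 in embryoid bodies with 20 mM and 417 and 550 in undifferentiated cells with 20 mM. Without ethanol it read 589 and 661 in embryoid bodies and 363 and 468 in undifferentiated cells. In a fit of all 30542 probe sets past the filter, its log2 difference was 0.48 ± 0.18 at 20 mM (adjusted p = 0.0721) and 0.60 ± 0.18 at 0 mM (adjusted p = 0.0408). The probe sets of CXCL12 thus disagreed on the call at 0 mM.

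CXCL14, a chemokine made by many epithelia without inflammation, rose in embryoid bodies relative to undifferentiated cells. Its signals were 1445 and 1380.4 in embryoid bodies with 20 mM ethanol, against 151 and 151 in undifferentiated cells with 20 mM. Without ethanol they were 617 and 759 in embryoid bodies, against 186 and 174 in undifferentiated cells. The log2 change was 3.22 ± 0.11 at 20 mM (9.33-fold, adjusted p = 2.54e-05) and 1.93 ± 0.11 at 0 mM (3.80-fold, adjusted p = 0.000141). A further probe set gave 3.21 ± 0.38 at 20 mM and 2.59 ± 0.38 at 0 mM. That probe set was dim on 1 undifferentiated array at each dose (74.1 at 20 mM and 63.1 at 0 mM), so its values are imprecise. The remaining probe set of CXCL14 was dim on all 8 arrays, at 3.89 to 37.2.

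CCL26, the eosinophil attractant, was well above the array median in undifferentiated cells. Its signals were 50.1 and 53.7 in embryoid bodies with 20 mM ethanol, 93.3 and 91.2 in embryoid bodies with 0 mM, 372 and 355 in undifferentiated cells with 20 mM, and 550 and 537 with 0 mM. The 4 groups did not overlap at any step of this order. In embryoid bodies the gene stood just above the array median without ethanol and was dim with it, so a fold from the dim group is imprecise. The log2 difference between the stages was -2.56 ± 0.07 at 0 mM, or 5.89-fold lower in embryoid bodies, and no fold is given at 20 mM. CCL26 had a single probe set.

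CCL2, the monocyte attractant, rose between the stages. Its signals were 1445 and 1349 in embryoid bodies with 20 mM ethanol, against 117 and 178 in undifferentiated cells with 20 mM. Without ethanol they were 1288 and 1230.3 in embryoid bodies, against 195 and 158 in undifferentiated cells. The log2 change was 3.27 ± 0.21 at 20 mM (9.66-fold, adjusted p = 0.00016) and 2.84 ± 0.21 at 0 mM (7.16-fold, adjusted p = 0.000285). Its probe set, the only one of CCL2, is of the _s_at kind, whose probes can bind several transcripts.

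CXCR4, the signalling receptor for CXCL12, rose between the stages at both doses. Its signals were 5495 and 5754 in embryoid bodies with 20 mM ethanol, against 316 and 324 in undifferentiated cells with 20 mM. Without ethanol they were 5495 and 5129 in embryoid bodies, against 331 and 288 in undifferentiated cells. The log2 change was 4.14 ± 0.09 at 20 mM (17.6-fold, adjusted p = 1.02e-05) and 4.10 ± 0.09 at 0 mM (17.2-fold, adjusted p = 1.28e-05). The other probe sets of CXCR4 gave 3.27 ± 0.09 and 3.44 ± 0.17 at 20 mM, and 3.44 ± 0.09 and 3.12 ± 0.17 at 0 mM.

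ACKR3, the arrestin-recruiting receptor for CXCL12, rose as well. Its signals were 4074 and 4074 in embryoid bodies with 20 mM ethanol, against 191 and 257 in undifferentiated cells with 20 mM. Without ethanol they were 3388 and 3311 in embryoid bodies, against 245 and 257 in undifferentiated cells. The log2 change was 4.20 ± 0.14 at 20 mM (18.4-fold, adjusted p = 2.43e-05) and 3.74 ± 0.14 at 0 mM (13.3-fold, adjusted p = 3.83e-05). A dimmer probe set of ACKR3, at 141 to 214 in embryoid bodies and 22.9 to 52.5 in undifferentiated cells, was dim on all 4 undifferentiated arrays, so no fold is given for it. The remaining probe set was dim on all 8 arrays.

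Of the 6 tested members, 4 rose and 1 fell between the stages, at 20 mM and at 0 mM alike. Over all genes 29.2% were called higher in embryoid bodies and 27.1% lower at 20 mM, 56.3% together, and at 0 mM 28% were called higher and 24.7% lower, 52.8% together. A call between the stages is thus common on these arrays. The median log2 difference of the 6 members was 3.25 at 20 mM and 2.38 at 0 mM, against 0.02 for all genes tested at both doses. The members were chosen with earlier results of these data known, so these medians are descriptions and no test of the set. The signs and calls of these 5 members held under every alternative in which they had a value, including a replicate block, and leaving out _x_at and _s_at probe sets left CXCL14 and CCL2 with no value, and so 3 members called. The plot of stage changes shows the tested members in filled bars.

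**Figure D2:**
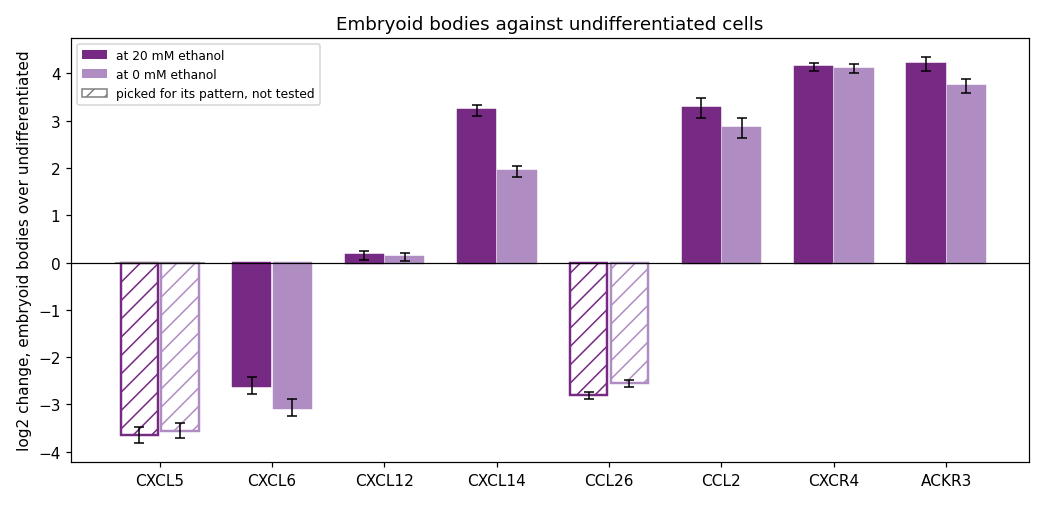
Log2 change of the 8 genes, embryoid bodies over undifferentiated cells, at 20 mM and at 0 mM ethanol, with standard errors of the fit as error bars. CXCR4 and ACKR3 reach 4.14 and 4.20 at 20 mM, CXCL12 stays at 0.15 and 0.12, and hatched bars mark CXCL5 and CCL26, which were not tested.

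The receptors that CXCL5, CXCL6 and CCL2 are known to act on were dim. CXCR1, CXCR2 and CCR2 lay under the array median on all 8 arrays, and CCR3 had no probe set of its own. Of 17 further chemokine receptor genes, 15 had a usable probe set and 2 passed the filter. CCR1, a receptor for inflammatory CC ligands, had signals of 126 and 170 in embryoid bodies and 28.2 and 30.9 in undifferentiated cells at 20 mM. At 0 mM its signals were 145 and 126 in embryoid bodies and 29.5 and 31.6 in undifferentiated cells. CCR1 was dim in undifferentiated cells and passed the filter through the embryoid bodies alone, so no fold or test is given for it. Among 6 further atypical receptors and related genes, PITPNM3 was the only one tested. Its log2 change was 0.43 ± 0.12 at 20 mM (adjusted p = 0.0275) and 0.30 ± 0.12 at 0 mM (adjusted p = 0.0891), where it did not pass.

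Among the CXC ligands other than the members, CXCL3 followed CXCL5 and CXCL6. CXCL3, also a neutrophil attractant, had signals of 97.7 and 102 in embryoid bodies with 20 mM and 437 and 427 in undifferentiated cells with 20 mM, and fell (log2 change -2.11 ± 0.07, adjusted p = 2.54e-05). In embryoid bodies with 20 mM it was dim on array A and at the median on array B, so the size of this change is imprecise. At 0 mM the signals were 102 and 95.5 in embryoid bodies and 427 and 407 in undifferentiated cells (log2 change -2.08 ± 0.07, adjusted p = 3.24e-05). Of the 13 CXC ligands of this list, 6 were tested, CXCL11 among them. Their median log2 difference was -0.57 at 20 mM and -0.46 at 0 mM. PF4 fell at both doses (log2 changes of -0.96 ± 0.22 and -0.93 ± 0.22), and CXCL1 fell at 0 mM (-0.73 ± 0.22, adjusted p = 0.0349) and was at -0.40 ± 0.22 at 20 mM (adjusted p = 0.173). In embryoid bodies with 20 mM, PF4 was dim on array B (97.7) and CXCL1 on array A (75.9). CXCL11 passed the filter through the embryoid bodies alone, at signals of 105 and 126 against 8.13 and 13.8 in undifferentiated cells with 20 mM, which are far under the array median, so no fold or test is given for it. In the order of the genes on chromosome 4, CXCL8, PF4V1 and PPBP were dim on all 8 arrays, as the plot of these neighbours shows. CX3CL1, a membrane-bound chemokine, rose at both doses (1.28 ± 0.31 at 20 mM and 1.495 ± 0.31 at 0 mM), and of 25 CC, CX3C and XC ligands 3 were tested.

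**Figure D3:**
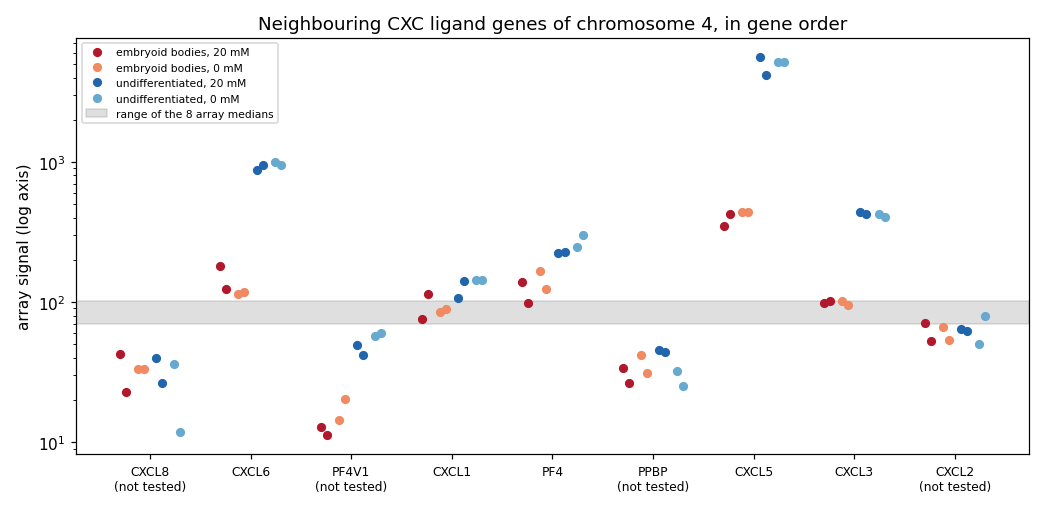
Signals of the CXC ligand genes of chromosome 4 in gene order, 1 point per array (log axis). The grey band spans the 8 array medians, 69.2 to 102. CXCL6, CXCL5 and CXCL3 show undifferentiated cells far above embryoid bodies, and PF4 a smaller gap. The points of CXCL1 overlap between the stages at 20 mM. CXCL8, PF4V1 and PPBP lie below the band.

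The counts for lists of regulators and partners of the chemokine system are to be read against the 56.3% of all genes called at 20 mM and the 52.8% called at 0 mM. These counts include genes that passed the filter through 1 stage alone, which favours 1 direction. Among such genes were MMP1, RGS4 and IL1R1, through the embryoid bodies, and DOCK2, through undifferentiated cells. The counts and medians are therefore descriptions. Of 18 tested genes of the NF-kappa-B system, 5 rose and 1 fell at 20 mM, and 7 rose and 1 fell at 0 mM, with medians of 0.19 and 0.25, so fewer than the background share were called. The interleukin-1 receptor IL1R1 was dim in undifferentiated cells, at 30.2 to 50.1, against 204 to 295 in embryoid bodies, and no fold is given for it. The NF-kappa-B inhibitor TNFAIP3 rose by 1.30 ± 0.10 and 0.91 ± 0.10. Of 8 tested genes of the interleukin-4, interleukin-13 and STAT6 axis, known to induce CCL26 in epithelial cells, 2 rose and 2 fell at 20 mM, and 1 rose and 3 fell at 0 mM. IL13RA1 rose by 1.45 ± 0.10 at 20 mM and 1.28 ± 0.10 at 0 mM, and JAK3 fell (-1.25 ± 0.20 at both doses).

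Of 15 tested proteases and glycosaminoglycan partners, 12 rose and 0 fell at 20 mM, and 10 rose and 1 fell at 0 mM. The medians were 0.91 and 0.70. MMP1, which passed the filter through the embryoid bodies alone, is among those counted as higher. DPP4, a peptidase that inactivates CXCL12, had signals of 1950 and 1698 in embryoid bodies with 20 mM and 302 and 178 in undifferentiated cells with 20 mM (log2 change 2.97 ± 0.29, adjusted p = 0.000598). At 0 mM DPP4 had signals of 1318 and 1288 in embryoid bodies and 129 and 191 in undifferentiated cells (log2 change 3.06 ± 0.29, adjusted p = 0.000641). The heparan sulfate proteoglycan GPC3 rose by 2.31 ± 0.14 and 2.43 ± 0.14 on the log2 scale. Of 19 tested genes of receptor signalling and arrestins, 5 rose and 6 fell at 20 mM and 7 rose and 6 fell at 0 mM, a share near or somewhat above that of all genes. The receptor kinase GRK5 rose by 2.04 ± 0.08 and 2.26 ± 0.08. DOCK2, which activates Rac downstream of chemokine receptors in leukocytes, was dim in embryoid bodies, at 41.7 to 60.3, against 141 to 186 in undifferentiated cells, and no fold is given for it. Of 7 tested hypoxia genes, 2 rose at both doses, VEGFA (1.38 ± 0.11 and 1.25 ± 0.11) and EPAS1 (2.24 ± 0.34 and 1.84 ± 0.34).

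With ethanol, none of the 6 tested members passed in embryoid bodies, in undifferentiated cells or for the difference between these effects. In limma's fit 1 member had an unadjusted p under 0.05 in embryoid bodies, 0 did in undifferentiated cells, and 1 did for the difference. Such a p was common in that fit. Of 14072 genes tested, 3137 had it in embryoid bodies, 986 in undifferentiated cells and 1828 for the difference. Over all genes 0.0711% were called in embryoid bodies, 0.00711% in undifferentiated cells and 0% for the difference, so few genes were called with these settings, though median centring called 3880 genes in embryoid bodies, a trended and robust variance 959 and a stricter filter 477.

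CXCL14 had the largest ethanol value among the tested members. In embryoid bodies its signals were 1445 and 1380.4 with 20 mM, against 617 and 759 with 0 mM, a log2 change of 1.05 ± 0.11 (2.07-fold, adjusted p = 0.0553, higher on both arrays). In undifferentiated cells its signals were 151 and 151 with 20 mM, against 186 and 174 with 0 mM, a log2 change of -0.25 ± 0.11 (adjusted p = 0.73). The groups did not overlap in either stage, and the value was positive in embryoid bodies and negative in undifferentiated cells. The embryoid body effect less the undifferentiated one was 1.30 ± 0.16 (adjusted p = 0.187). Opposite directions without overlap in both stages were seen for 6.26% of all genes tested. The further probe set of CXCL14 read 851 and 912 with 20 mM and 550 and 537 with 0 mM in embryoid bodies, a log2 change of 0.70 ± 0.38 (adjusted p = 0.379). In undifferentiated cells that probe set read 74.1 and 123 with 20 mM and 63.1 and 129 with 0 mM, a log2 change of 0.08 ± 0.38, of the opposite sign, and lay under the median on 1 array of each of these groups. The difference between its effects was 0.61 ± 0.54 (adjusted p = 0.701). The embryoid body value passed under 5 of 18 alternatives, with adjusted p = 0.00734 to 0.353 and log2 changes of 0.58 to 1.196.

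CCL26 was lower with ethanol in both stages. Its signals were 50.1 and 53.7 in embryoid bodies with 20 mM, against 93.3 and 91.2 with 0 mM, and the 20 mM signals were dim, so the fitted log2 difference of -0.83 ± 0.07 is imprecise. They were 372 and 355 in undifferentiated cells with 20 mM, against 550 and 537 with 0 mM, a log2 difference of -0.58 ± 0.07, or 1.496-fold. The doses did not overlap in either stage. This pattern is what the gene was picked for, and 3.96% of all tested genes were lower with no overlap in both stages. CXCL5 was at -0.18 ± 0.17 in embryoid bodies and -0.08 ± 0.17 in undifferentiated cells, and both values turned positive when its probe sets were averaged.

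The remaining members showed small ethanol values. In embryoid bodies they were 0.37 ± 0.18 for CXCL6 (adjusted p = 0.296), 0.28 ± 0.14 for ACKR3 (adjusted p = 0.3), 0.15 ± 0.21 for CCL2 (-0.12 when median centred), 0.08 ± 0.09 for CXCR4 (-0.18 when median centred) and -0.05 ± 0.09 for CXCL12 (0.01 after cyclic loess). For CXCL6 both arrays with 20 mM, at 182 and 123, lay above both with 0 mM, at 115 and 117. In undifferentiated cells the values were -0.10 ± 0.18 for CXCL6, -0.18 ± 0.14 for ACKR3, -0.28 ± 0.21 for CCL2, 0.05 ± 0.09 for CXCR4 (-0.08 when median centred) and -0.08 ± 0.09 for CXCL12. Of the 6 tested members, 4 were higher with ethanol without overlap of arrays in embryoid bodies and 0 were lower, against 29.4% higher and 28.1% lower among all genes tested. In undifferentiated cells 0 were higher and 1 was lower without overlap, against 15.4% and 12.1%. The plot of ethanol changes sets both stages side by side.

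**Figure D4:**
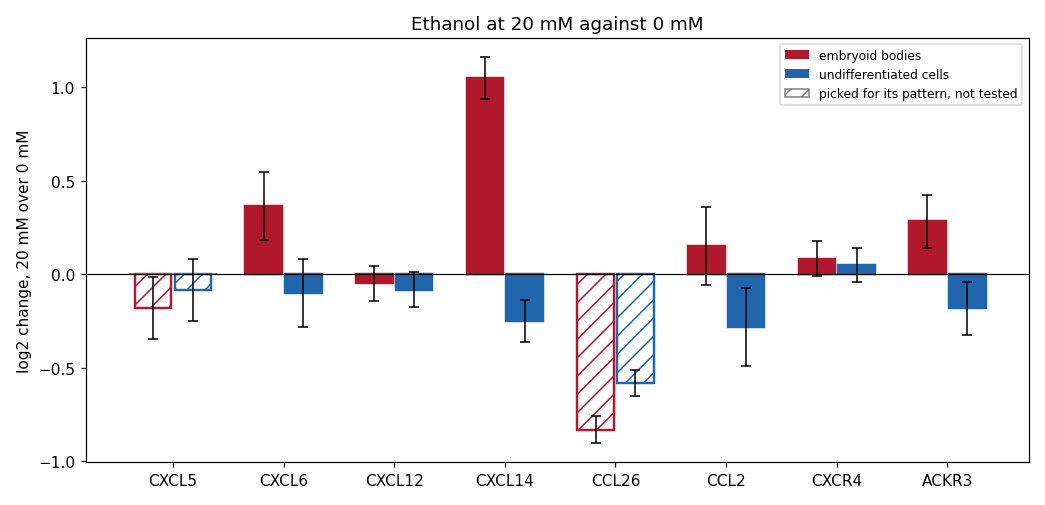
Log2 change of the 8 genes with 20 mM over 0 mM ethanol, in embryoid bodies and in undifferentiated cells, with standard errors of the fit as error bars. CXCL14 stands at 1.05 in embryoid bodies and -0.25 in undifferentiated cells, and CCL26, hatched because it was picked for its pattern, is below 0 in both.

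Marker genes of other cell types moved with ethanol in embryoid bodies beside CXCL14 and CCL26. The summed signal of 10 mesenchyme markers was 72614 to 73588 with 20 mM, against 47645 to 48999 with 0 mM, and that of 9 endoderm and yolk sac markers was 39955 to 41229 with 20 mM, against 30094 to 30133 with 0 mM. The 9 pluripotency markers summed to 81052 to 84869 with 20 mM, against 93394 to 95674 with 0 mM. Sums of 10 epithelium markers were 50172 to 52368 with 20 mM and 54434 to 56484 with 0 mM. The other marker lists shifted too. Endothelium markers summed to 2848 to 2935 with 20 mM and 2228 to 2435 with 0 mM, and leukocyte markers to 711 to 780 and 468 to 614. Neural markers summed to 30564 to 31818 with 20 mM and 32945 to 33739 with 0 mM, and cardiac and smooth muscle markers to 5637 to 5710.5 and 6085 to 6350. The array medians were also higher with 20 mM. No gene of these marker lists was called with ethanol, and the part of cell type composition or of array scale in the values of CXCL14 and CCL26 was not tested. Among the pathway lists, MMP1, a collagenase that also cleaves CXCL12, was the 1 gene called with ethanol in embryoid bodies. Its signals there were 490 and 437 with 20 mM against 214 and 195 with 0 mM (log2 change 1.18 ± 0.09, adjusted p = 0.0467). In undifferentiated cells MMP1 had signals of 12.9 and 12.3 with 20 mM against 2.88 and 3.09 with 0 mM, far under the array medians. MMP1 passed the filter through the embryoid bodies alone. It was called in undifferentiated cells too, but at these signals that call is not read as a result, and no fold is given. With a floor of 16 on signals no gene was called in undifferentiated cells. No gene was called with ethanol in either stage with a replicate block or with the compared groups alone, so both calls of MMP1 were lost there. In the interleukin-4, interleukin-13 and STAT6 list, 0 of 8 tested genes were called with ethanol in either stage, and STAT6 itself was at 0.18 ± 0.07 in embryoid bodies (adjusted p = 0.224) and 0.03 ± 0.07 in undifferentiated cells.

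The genes whose log2 signals over the 8 arrays were most like those of CXCL5 were BIRC5 (Pearson r = 0.9989), LACTB2 (0.9974) and KCNS3 (0.9974). For CCL26 they were POLR2E (0.998), FAHD2A (0.9978) and HMGA1 (0.9971). HMGA1, a chromatin protein, had signals of 6918 and 6761 in embryoid bodies with 20 mM and 7943 and 7943 with 0 mM, and 12023 and 12303 in undifferentiated cells with 20 mM and 13183 and 13804 with 0 mM. Like CCL26 it was lower with ethanol without overlap in both stages, over a far smaller range. For CXCL12 they were SYNE1 (0.9725), NFE2L1 (0.9672) and IDE (0.9661). The arrays fall into the 2 stages, so these coefficients are descriptions: 1512 genes had r above 0.95 with CXCL5 and 1517 with CCL26, but 6 with CXCL12.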

How the data were processed

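The authors deposited log10 signals, as the values show: they ran from -1.46 to 4.61 with 2 decimals (a step of 0.03 on the log2 scale) and shared a trimmed mean on the linear scale (2% of probe sets left out at each end). Per the submitters' processing notes RMA was used, with no version, but values below 0 and a shared trimmed mean are the form of scaled MAS 5 signals. The deposited log10 values were converted to log2 by a constant, with no further normalisation. Of 54675 probe sets, 41097 named 1 gene in the platform annotation, whose symbols were updated by gene ID to RefSeq, 1801 named several and 11777 none. A gene was tested when its probe set exceeded the array median on at least 2 arrays. limma 3.58.1 (R 4.3.3) fitted 4 group means to all 8 arrays, with 4 residual and 1.81 prior degrees of freedom, and Benjamini-Hochberg adjusted p under 0.05 was a call. The members and gene lists were chosen with earlier results of these data known. Named genes are the members, up to 3 called genes of smallest p per pathway list and comparison, described where they bear on a member, and for CXCL5, CCL26 and CXCL12 the 3 genes of highest correlation. CXCL1, CXCL2, CXCL8, PF4V1 and PPBP (neighbours of CXCL5) and the receptors CXCR1, CXCR2 and CCR2 were named outside this rule, after their values were seen. So were RGS4 and, among the markers, LCP1 and CD53. Other list genes are given as counts. Like-lettered arrays deviated from their group means with correlations of -0.026 to 0.049 across genes, so the letters give no pairing. The fit was tested on simulated data. The number of arrays limits the precision.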

Additional observations from a re-analysis of the deposited data

Results flagged for a closer look

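CXCL14 was flagged because the direction of its ethanol value differed between the stages: both arrays with 20 mM lay above both with 0 mM in embryoid bodies, and below them in undifferentiated cells. The embryoid body effect less the undifferentiated one was 1.30 on the log2 scale, and limma's test of that difference did not pass (adjusted p = 0.187). Over the alternatives the difference ran from 0.0609 to 1.445, with adjusted p = 0.0427 to 0.972 from limma, and on a further probe set of CXCL14 it was 0.61 (adjusted p = 0.701). Among all genes tested, 6.26% showed such opposite directions without overlap. No group held enough arrays for a test of single outlying arrays.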

How the results depend on the processing

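Of the results on the 6 tested members, 544 values under alternatives kept their direction and side of the threshold, 8 became calls and 27 changed sign, and the cause was not tested. Counts of members called with ethanol in embryoid bodies were 1, CXCL14, under the filter at the 75th percentile, quantile normalisation, median centring, a floor of 16 on signals, and a trended and robust variance. For the difference between the ethanol effects the count was 1 under that filter and under that variance. Between the stages it was 3 at either dose when _x_at and _s_at probe sets were left out. With median centring the all-gene median shifted by -0.27 and -0.13 with ethanol in embryoid bodies and undifferentiated cells, by -0.13 for the difference, and by -0.42 and -0.28 between the stages at 20 and 0 mM. It turned CXCR4 to -0.18 in embryoid bodies, -0.083 in undifferentiated cells and -0.10 for the difference, CCL2 to -0.12 in embryoid bodies, and CXCL12 to -0.10 for the difference and -0.27 and -0.17 between the stages at 20 and 0 mM. The mean of all probe sets turned CXCL12 to 0.0249 in embryoid bodies, 0.0664 in undifferentiated cells and -0.0415 for the difference, and CXCL14 in undifferentiated cells to 0.51, an average that includes its probe set that is dim on all arrays. Cyclic loess turned CXCL12 in embryoid bodies to 0.0096. The fit of single probe sets, chosen after seeing the data, gave 0.10, 0.22 and -0.12 for CXCL12 in embryoid bodies, in undifferentiated cells and for the difference, 0.083 for CXCL14 in undifferentiated cells, and -0.0664 and -0.17 for CXCR4 in embryoid bodies and for the difference.

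Without each array in turn, ethanol values in undifferentiated cells ran from -0.40 to 0.0332 for ACKR3, -0.58 to 0.0166 for CCL2, -0.18 to 0.0166 for CXCL12 and -0.0498 to 0.15 for CXCR4, and the difference from -0.0664 to 0.13 for CXCL12 and CXCR4. Over all genes, the count called with ethanol in embryoid bodies was 10. It was 0 with a replicate block, with the compared groups alone and without _x_at and _s_at probe sets, 1 for the mean of probe sets, 2 with no filter, 53 with the floor, 62 after quantile normalisation, 477 with the stricter filter, 959 with the trended variance, 3880 when median centred (172 higher and 3708 lower) and 0 to 4 without single arrays. In undifferentiated cells the count was 1. It was 0 with the stricter filter, the floor, the trended variance, a replicate block and the compared groups alone, 2 with no filter or median centring, 3 without _x_at and _s_at probe sets, and 0 to 34 without single arrays. For the difference it was 0, 13 with the stricter filter, 31 with the trended variance, and 0 to 10 without single arrays. Between the stages median centring gave 2269 higher and 6822 lower at 20 mM and 2506 higher and 5815 lower at 0 mM, against 4113 and 3810 at 20 mM and 3946 and 3478 at 0 mM as deposited. A replicate block changed no call on a member.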
